A study of Danio rerio with 20 samples.

Results

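Single 1-bp deletions are the smallest losses that repair can leave at a Cas9 cut, and they were followed here across 6 single guide RNAs in zebrafish melanomas. An allele was a member when its label was exactly 1 event of the form position:1D, with no second event and no substitution prefix. By this rule 114 of the 820 listed indel alleles were members, of which acaa2-sg1 listed 17, acaa2-sg2 listed 22, tlr4ba-sg1 listed 23, tlr4ba-sg2 listed 18, tlr4bb-sg1 listed 18 and tlr4bb-sg2 listed 16. The rule uses the written form of an allele and none of its counts.

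Cas9 cuts both strands of the DNA near the end of the guide's match, and end joining often closes the break with a few bases lost or gained. A loss of 1 base shifts the reading frame of a coding sequence. In a run of identical bases the loss of any one of them gives the same sequence, so the written position of such a deletion is a convention, and the convention used was not given in the sources used here. The enzyme encoded by acaa2 is a thiolase that breaks down fatty acids in mitochondria. Zebrafish tlr4ba and tlr4bb are relatives of mammalian TLR4, the Toll-like receptor that recognises bacterial lipopolysaccharide in mammals.

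The samples were amplicon reads of genomic DNA from melanomas raised by TEAZ, in which transgenes are electroporated into fish skin, and sorted for tdTomato and Hoechst. Groups were acaa2-sg1 and acaa2-sg2 from fish 1 to 4 of the acaa2 knockout, and tlr4ba-sg1 (fish 3 and 4), tlr4ba-sg2 (fish 1 to 4), tlr4bb-sg1 (fish 3 and 4) and tlr4bb-sg2 (fish 1 to 4) of the TLR4 knockout. All 20 samples were tumours that had received guides, no unedited tissue was analysed here, and the labels do not state the fish strain, age, transgenes or the order of editing and tumour growth. Each sample was 1 amplicon of 1 fish, and the labels do not say that amplicons of 1 knockout with the same fish number come from 1 animal. They are taken so only where pairing is named and in the comparison of the knockouts.

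Depth was 28353 to 729540 reads per sample. Reads with a described allele, or unmodified, are called classified reads, and they numbered 28230 to 729108. Intervals are 95% Wilson intervals, and a count of 0 was taken to allow 3 reads. Reads came from PCR without molecular identifiers, so intervals and limits cover counting error only. Guide sequences, genome coordinates and exons were not analysed here, and positions are given as the tables write them, running from -1 to 1 without a 0.

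The share of reads with a single 1-bp deletion ran from 0.0209% to 88.3% of classified reads, with a median of 1.39% over the 20 samples. It was 10% or more in 6 samples, between 1% and 10% in 4, and below 1% in 10. The 95% interval of this share spanned at most 0.616 percentage points, which is narrow beside the range over all samples. It is not narrow beside the spread between fish at every guide. At tlr4bb-sg1 the 2 fish differed by less than the width of either interval. At tlr4ba-sg2 the interval of fish 2 (0.0600% to 0.131%) was wide beside the range of the 4 fish (0.0325% to 0.116%).

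At the acaa2-sg1 site, fish 1 had a single 1-bp deletion in 0.0563% of classified reads, fish 2 in 0.229%, fish 3 in 36.2% and fish 4 in 4.10%. Only fish 3 was high, and the mean was 10.2% ± 17.5 (SD, n = 4). As a share of indel reads fish 1 had 72.0%, fish 2 0.277%, fish 3 91.4% and fish 4 9.61%. The value of fish 1 rests on 161 indel reads and has an interval of 64.7% to 78.4%. The second site of the gene, acaa2-sg2, was at 0.0209% of classified reads for fish 1, 88.3% for fish 2, 2.55% for fish 3 and 38.6% for fish 4. These averaged 32.4% ± 41.3 (SD, n = 4). Among its indel reads the shares were 1.53% for fish 1, 99.98% for fish 2, 2.86% for fish 3 and 98.7% for fish 4, so fish 2 and fish 4 carried almost no other indel.

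Both fish read at tlr4ba-sg1 were high, at 36.8% of classified reads in fish 3 and 62.1% in fish 4. These reads were 99.8% and 79.8% of the indel reads of the same fish. All 4 fish read at tlr4ba-sg2 were low, at 0.116%, 0.0886%, 0.0401% and 0.0325% in fish 1 to 4, although fish 1 carried indels of any kind in 69.2% of its reads. The members were 0.167%, 1.64%, 0.445% and 4.42% of the indel reads at this site.

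At tlr4bb-sg1 the members made up 0.0377% of classified reads in fish 3 and 0.0378% in fish 4, and the intervals of both fish ran from 0.030% to 0.047%. They were 86.3% and 83.5% of only 102 and 91 indel reads. At tlr4bb-sg2 fish 1 had 4.55%, fish 2 45.2%, fish 3 4.72% and fish 4 0.215%, averaging 13.7% ± 21.1 (SD, n = 4). Here the members were 6.28%, 56.7%, 67.2% and 1.21% of indel reads in fish 1 to 4.

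Single 1-bp deletions were the largest class of indel reads in 10 of the 20 samples, set against single deletions of 2 bp or more, single insertions and alleles of several events. In the other 10 samples deletions of 2 bp or more were the largest class. Insertions led in 0 samples. Of the 10 samples led by 1-bp deletions, 3 had under 0.1% of their classified reads in indels, namely acaa2-sg1 fish 1 and both tlr4bb-sg1 samples.

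Few members were abundant. Only 7 of the 114 members (6.14%) reached 1% of classified reads in any fish, against 3.17% of all 820 indel alleles. The same count was 16 of 198 single deletions of 2 bp or more (8.08%), 3 of 58 single insertions (5.17%) and 0 of 450 alleles of several events. The 7 members are called common alleles below, and they held 99.5% of all reads with a single 1-bp deletion. They were chosen by their own values, so these values are a description. The gap at the threshold was wide. The lowest common allele peaked at 3.71% (-1:1D at acaa2-sg1), and the highest allele outside peaked at 0.243% (-3:1D at acaa2-sg1).

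Of the 7 common alleles, 6 lay at positions -2, -1 or 1, next to the boundary from which positions are counted, and 1 lay at position -14. Among all 114 members, 5 lay at position -2, 4 at -1, 6 at 1 and 4 at -14. The positions of the other indel alleles at 1% or more are not given here. The first guide of acaa2 had 2 of them, its second guide 1, tlr4ba-sg1 1, tlr4bb-sg2 3, and tlr4ba-sg2 and tlr4bb-sg1 had 0. A common allele was present at 1% or more in 10 samples, and 2 samples held a pair of them.

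At acaa2-sg1 the leading member was 1:1D, the loss of the base at position 1. It took 0 reads in fish 1, which allows up to 0.00146%, 0.215% of classified reads in fish 2, 32.5% in fish 3 (interval 32.3 to 32.7) and 0.285% in fish 4. Fish 3 alone was high. The other common allele, -1:1D, took 0 reads in fish 1, 1 read in fish 2, 3.41% in fish 3 (interval 3.34 to 3.49) and 3.71% in fish 4 (interval 3.64 to 3.79). Unlike 1:1D it was close in fish 3 and fish 4, where it made up 8.61% and 8.69% of indel reads. Fish 4 therefore carried -1:1D above 1:1D and fish 3 the reverse order.

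A single allele carried nearly all 1-bp deletions of acaa2-sg2. This allele, -2:1D, had 11 reads or 0.0039% in fish 1, 88.2% in fish 2 (interval 88.1 to 88.3), 2.38% in fish 3 and 38.5% in fish 4 (interval 38.3 to 38.6). It was at 1% or more in 3 of 4 fish, the most of any common allele. In fish 1, -11:1D and -12:1D led with 14 reads each, and -2:1D made up 18.6% of the reads with a single 1-bp deletion. In fish 2, 3 and 4 it made up 99.8%, 93.3% and 99.6% of these reads. Fish 3, where it was lowest among the 3, had 89.2% of its reads in indels, mostly longer deletions (97.0% of indel reads).

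At tlr4ba-sg1 the common allele was -14:1D, at 36.6% of classified reads in fish 3 (interval 36.5 to 36.8) and 62.0% in fish 4 (interval 61.9 to 62.2). It was the only common allele beyond position -2, and both fish carried it. Its presence before editing was not tested, since no unedited tissue was analysed here. At positions -2 to 1, where the other common alleles lie, this amplicon had 2 reads with a single 1-bp deletion in fish 3 and 3 in fish 4. Within 10 positions of the boundary the members of tlr4ba-sg1 averaged 0.0325% of classified reads.

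The 3 common alleles of tlr4bb-sg2 lay side by side and differed by fish. Allele 1:1D took 0.334% in fish 1, 43.1% in fish 2 (interval 42.8 to 43.4), 3 reads in fish 3 and 1 read in fish 4. Allele -1:1D took 4.21% in fish 1 (interval 4.09 to 4.33), 1.80% in fish 2 (interval 1.72 to 1.89), 0.0034% in fish 3 and 0.186% in fish 4. It led in fish 1 and fish 4 and was second in fish 2. Allele -2:1D took 4.67% in fish 3 (interval 4.60 to 4.75), had 1 read in fish 2, and was at 0 reads in fish 1 (up to 0.00285% allowed) and fish 4 (up to 0.000980% allowed). The order from most to fewest reads was -1, 1, -2 in fish 1 and fish 4, 1, -1, -2 in fish 2 and -2, -1, 1 in fish 3, and in each fish the leader held 86.5% to 99.1% of the 1-bp deletion reads.

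At the site without a common allele that had the most editing, tlr4ba-sg2 fish 1, the leading member was -1:1D with 68 reads, or 0.0970% of classified reads. Fish 2 had 10 reads of it (0.0354%), fish 3 had 0 and fish 4 had 1. In fish 3 and fish 4 the leader was 1:1D instead, with 57 and 70 reads.

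The comparisons between guides asked whether the share of 1-bp deletions differed between sites beyond the spread of the fish. There were 10 such comparisons, 5 on classified reads and 5 on indel reads, and each difference of means over samples was tested by exact permutation, two-sided, and Benjamini-Hochberg values were taken over the 10. Of these exact permutation tests, 1 gave an unadjusted p under 0.05, and the Benjamini-Hochberg values ran from 0.222 to 0.629. The 2 tlr4 second guides did not overlap. At tlr4ba-sg2 the share of classified reads was 0.0692% ± 0.0397 (SD, n = 4) and at tlr4bb-sg2 it was 13.7% ± 21.1 (SD, n = 4), which is -13.6 percentage points by tlr4ba-sg2 minus tlr4bb-sg2 (exact permutation test, p = 0.0286, the lowest possible with 4 against 4, Benjamini-Hochberg 0.222). The share was lower at tlr4ba-sg2 in 4 of 4 fish numbers, with differences of -4.44, -45.1, -4.68 and -0.182 points in fish 1 to 4. The difference did not pass the correction. Since its p was already the lowest possible, no larger difference could have passed unless other comparisons also had low p-values. Without tlr4bb-sg2 fish 2 it was -3.09 points, and leaving out any 1 of the 8 samples gave an exact permutation p of 0.0571, the lowest possible with 3 against 4. Within fish 1 and 2 the difference was -24.8 points and within fish 3 and 4 it was -2.43 points. The indel percent was 69.2%, 5.39%, 9.01% and 0.736% at tlr4ba-sg2 and 72.5%, 79.6%, 7.02% and 17.8% at tlr4bb-sg2, and its part in the result was not tested. As a share of indel reads the members were 1.67% ± 1.94 at tlr4ba-sg2 and 32.9% ± 34.0 at tlr4bb-sg2 (SD, n = 4 each; first minus second -31.2 points, exact permutation test, p = 0.0857, Benjamini-Hochberg 0.222), with tlr4ba-sg2 higher in fish 4 by 3.21 points and lower in the other 3.

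The acaa2 guides were not separable. Their shares of classified reads differed by -22.2 points (10.2% ± 17.5 at acaa2-sg1 and 32.4% ± 41.3 at acaa2-sg2, SD, n = 4 each, exact permutation test, p = 0.371). Fish by fish the difference alternated in sign, at 0.0354, -88.1, 33.7 and -34.5 points in fish 1 to 4. The members were 43.3% ± 45.2 of indel reads at acaa2-sg1 and 50.8% ± 56.1 at acaa2-sg2 (SD, n = 4 each; first minus second -7.43 points, exact permutation test, p = 0.629). In fish 1 and fish 3 the 1-bp deletions took a larger share of indel reads at acaa2-sg1 than at acaa2-sg2 (by 70.5 and 88.5 points), and in fish 2 and fish 4 a smaller one (by -99.7 and -89.1 points).

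The first guides of tlr4ba and tlr4bb were read in 2 fish only. At tlr4ba-sg1 the share of classified reads was 49.5% ± 18.0 (SD, n = 2), against 0.0692% ± 0.0397 (SD, n = 4) at tlr4ba-sg2 (first minus second 49.4 points, exact permutation test, p = 0.133, the lowest possible with 2 against 4). This difference rests on -14:1D. With only members within 10 positions of the boundary counted it was -0.0324 points. At tlr4bb-sg1 the share was 0.0377% (n = 2, SD 8.0e-05 percentage points) and at tlr4bb-sg2 13.7% ± 21.1 (SD, n = 4; first minus second -13.6 points, exact permutation test, p = 0.133, again the lowest possible). On indel reads the order was the opposite, where tlr4bb-sg1 averaged 84.9% ± 1.95 (SD, n = 2) and the mean of tlr4bb-sg2 was 32.9% ± 34.0 (SD, n = 4) (first minus second 52.0 points, exact permutation test, p = 0.133). With reads of no described allele counted as indel reads this last difference was -30.5 points. On indel reads the tlr4ba guides had 89.8% ± 14.2 (SD, n = 2) at the first site and 1.67% ± 1.94 (SD, n = 4) at the second. The difference was 88.1 points (exact permutation test, p = 0.133). With only members within 10 positions counted it was -1.41 points, while reads of -14:1D stayed among the indel reads.

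For the knockouts, amplicons with the same fish number were averaged as if from 1 animal, which the labels do not state. The average of each acaa2 fish covers both guides, that of tlr4 fish 1 and 2 the 2 second guides, and that of tlr4 fish 3 and 4 all 4 guides, with -14:1D of tlr4ba-sg1 among their reads. On this basis single 1-bp deletions took 21.3% ± 18.1 of classified reads in acaa2 fish and 12.7% ± 8.56 in tlr4 fish (SD, n = 4 each; first minus second 8.52 points, exact permutation test, p = 0.457). The 4 acaa2 fish stood at 0.0386%, 44.3%, 19.4% and 21.4%, and the 4 tlr4 fish at 2.33%, 22.6%, 10.4% and 15.6%. These ranges overlapped. Within fish 1 and 2 the difference was 9.67 points and within fish 3 and 4 it was 7.38 points. On indel reads the acaa2 fish averaged 47.0% ± 7.42 and the tlr4 fish 34.5% ± 25.2 (SD, n = 4 each; first minus second 12.5 points, exact permutation test, p = 0.457). The difference on indel reads was 27.3 points within fish 1 and 2 and -2.19 points within fish 3 and 4. The averages on indel reads weigh each amplicon alike. Among them are acaa2-sg1 fish 1 with 161 indel reads and tlr4bb-sg1 fish 3 and 4 with 102 and 91. Without samples of under 1000 indel reads the means were 38.2% in acaa2 fish and 29.2% in tlr4 fish, 9.06 points apart (exact permutation test, p = 0.657). With only members within 10 positions counted, the means on indel reads were 45.9% in acaa2 fish and 19.4% in tlr4 fish, 26.4 points apart (exact permutation test, unadjusted p = 0.0286, the lowest possible), the only 1 of 11 alternative settings for this difference with a p under 0.05. The same restriction on classified reads gave 14.7 points (exact permutation test, p = 0.371). On both measures the restriction kept the samples of under 1000 indel reads. It took members out of the count but not out of the indel or classified reads. At tlr4ba-sg1 fish 3, -14:1D made up 139764 of 140535 indel reads, so the restricted share there was bound to be low. A count with these reads left out of both was not made.

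The other 107 members stayed under 1% of classified reads in every fish of their guide. They lay at positions -22 to 11, and 75 of them had under 20 reads over all fish. Of the 114 members together, 46 had a read in every fish of their guide, 31 in 1 fish only, and 14 had a single read in all. The count of 46 mixes guides read in 2 fish and in 4 fish. With 2 fish to cover, 19 of 23 members of tlr4ba-sg1 and 11 of 18 of tlr4bb-sg1 had a read in every fish. Where 4 fish were read, only 3 to 6 members per guide did. The same counts over all indel alleles are not given here. A molecule that already carries a large indel cannot be counted under a single 1-bp deletion, so the low-count members were also expressed per read without an indel, as the reads of the allele over the sum of these reads and all reads without an indel. Members were called alike in all fish when every pair of 95% Wilson intervals overlapped, and the 32 members with 20 reads or more were compared.

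Of these 32 low-count members, 15 (46.9%) were alike in all fish per read without an indel, against 15.3% of all 98 low-count indel alleles with 20 reads or more. The remaining 66 low-count indel alleles, which were longer deletions, insertions and alleles of several events, included 0 that were alike in all fish. Median reads per allele were 57.5 for the 32 members and 89.0 for the other 66, and intervals of fewer reads overlap more readily. Their difference was not tested.

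The count of members alike in all fish differed between members near a common allele and the others, as a description. Within 3 positions of a common allele lay 21 low-count members, of which 16 had 20 reads or more, and 1 of these 16 was alike in all fish. Farther away, or at guides with no common allele, lay 86, of which 16 had 20 reads or more, and 14 of these 16 were alike. A member without a read in some fish can still be called alike. Of these 14, -11:1D at acaa2-sg2 had a read in 2 of 4 fish and 7:1D at tlr4ba-sg2 in 3 of 4. All 86 are called distant, although tlr4ba-sg2 (5 compared) and tlr4bb-sg1 (3 compared) had no common allele. As a share of classified reads, 3 of the 16 near members and 9 of the 16 distant members were alike. Median reads per allele were 132 for the 16 near members and 46.5 for the 16 distant ones, and the part of this gap in the counts was not tested. Overlap of every pair is also easier to reach at tlr4ba-sg1 and tlr4bb-sg1, which were read in 2 fish. Per read without an indel, all compared distant members of these guides were alike (5 and 3), and none of the compared near members of tlr4ba-sg1 were. As shares of classified reads the picture at tlr4ba-sg1 was reversed. Near -13:1D, -16:1D and -17:1D were alike and -15:1D was not, while distant 11:1D and 7:1D were alike and 8:1D, 4:1D and 6:1D were not. The part of the number of fish was not tested either. The distance of 3 positions and the minimum of 20 reads were set after the values were seen.

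Summed, the distant members were close between fish at some sites and far apart at others, with a ratio of the highest fish to the lowest of 11.4 for tlr4ba-sg2, 4.11 for acaa2-sg2, 1.68 for tlr4bb-sg2, 1.30 for tlr4ba-sg1, 1.17 for acaa2-sg1 and 1.003 for tlr4bb-sg1. At acaa2-sg2 the 16 of them had only 41, 9, 5 and 29 reads in fish 1 to 4, or 0.0147%, 0.0262%, 0.00638% and 0.00917% per read without an indel. At acaa2-sg1 the 10 distant members made up 0.0515%, 0.0548%, 0.0559% and 0.0476% per read without an indel in fish 1 to 4, or 0.0525% ± 0.00374 (SD, n = 4). The indel percent of the same samples ran from 0.0782% to 82.4%. As a share of classified reads the same sum ran from 0.00964% in fish 2 to 0.0515% in fish 1, a ratio of 5.34. Most of it was 5:1D, which had 87, 7, 41 and 43 reads in fish 1 to 4. Per read without an indel this allele stood at 0.0423%, 0.0349%, 0.0306% and 0.0306%, and all 4 intervals overlapped. It was the most abundant 1-bp deletion of fish 1, the acaa2 fish with few indels.

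At tlr4ba-sg1 both kinds of low-count member stood side by side. Distant 8:1D was read 79 times in fish 3 and 34 times in fish 4, or 0.0328% and 0.0340% per read without an indel, a ratio of 1.04. As shares of classified reads the 2 fish were 2.76 times apart. The same held for 4:1D (34 and 16 reads), at 0.0141% and 0.0160% per read without an indel, and for 11:1D (19 and 8 reads), at 0.00789% and 0.00801%. These 3 were named after their values were seen. The other compared distant members, 7:1D (14 and 7 reads) and 6:1D (16 and 4 reads), were farther apart between the fish. Per read without an indel, 7:1D stood at 0.00581% and 0.00701%, a ratio of 1.21. For 6:1D the rates were 0.00664% and 0.00400%, a ratio of 1.66. All 5 distant members of this guide with 20 reads or more were alike in both fish per read without an indel. As shares of classified reads, only 11:1D and 7:1D of these were alike. Of the distant members with fewer reads, -18:1D and -8:1D had 4 reads each in fish 3 and 6 in fish 4, and -5:1D had 2 and 6, so their rates were higher in fish 4, with overlapping intervals. Of the 5 neighbours of -14:1D, the 4 with 20 reads or more were not alike per read without an indel. As shares of classified reads, all of these 4 but -15:1D were alike. Per read without an indel, -15:1D stood at 0.0382% in fish 3 and 0.166% in fish 4, -13:1D at 0.0411% and 0.159%, and -16:1D at 0.0183% and 0.0740%, so fish 4 was 3.87 to 4.35 times fish 3.

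Set against -14:1D itself, these 4 neighbours were closer between the fish. For every 100 reads of -14:1D, fish 3 had 0.0708 reads of -13:1D and fish 4 had 0.0567. On the same scale -15:1D had 0.0658 and 0.0592 reads, -16:1D had 0.0315 and 0.0264, and -17:1D had 0.00859 and 0.00748. The neighbour with the fewest reads, -11:1D, was read 7 times in fish 3 and 4 times in fish 4. It stood at 0.00291% and 0.00400% per read without an indel, with overlapping intervals, and at 0.00501 and 0.00143 per 100 reads of -14:1D.

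At acaa2-sg2 a pair of neighbours of -2:1D had most reads in fish 2 and fish 4, where it was high. Allele -3:1D had 0, 321, 37 and 426 reads in fish 1 to 4, which is 0.124, 0.213 and 0.213 per 100 reads of -2:1D in fish 2, 3 and 4. Allele -4:1D had 0, 86, 8 and 218 reads, or 0.0331, 0.0461 and 0.109 per 100. Another neighbour, 1:1D, did not follow: its 4, 31, 1200 and 76 reads peaked in fish 3, where it made up 0.165% of classified reads and 6.92 per 100 reads of -2:1D, against 0.0119 and 0.0381 per 100 in fish 2 and fish 4.

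Neighbours at the remaining sites varied as widely. At acaa2-sg1, -3:1D had 0 reads in fish 1 and fish 2, 539 in fish 3 and 170 in fish 4, or 7.12 and 1.87 per 100 reads of -1:1D. Next to it, -2:1D had 0, 1, 45 and 16 reads. At tlr4bb-sg2, 2:1D had 6, 225, 1 and 1 reads in fish 1 to 4, with its peak of 0.225% of classified reads in fish 2, where 1:1D was also highest, and 3:1D had 1, 6, 3 and 0 reads. Of the 16 near members with 20 reads or more, the only one alike in all fish was -5:1D at tlr4bb-sg2, which lay exactly 3 positions from -2:1D. Its 3, 5, 74 and 64 reads were 0.0104%, 0.0245%, 0.0248% and 0.0254% per read without an indel.

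At the sites without a common allele, 3 of 3 compared members of tlr4bb-sg1 and 3 of 5 of tlr4ba-sg2 were alike in all fish. At tlr4bb-sg1, fish 3 and fish 4 had 22 and 21 reads of -12:1D, 14 and 11 of -10:1D, and 13 and 10 of 9:1D. All 3 were alike in both fish, and the 18 members of this guide summed to 88 and 76 reads, or 0.0377% and 0.0378% per read without an indel. At tlr4ba-sg2, 1:1D stood at 0.0231%, 0.0112%, 0.0131% and 0.0115% per read without an indel in fish 1 to 4, from 5, 3, 57 and 70 reads, and -8:1D at 0.0139%, 0.00749%, 0.00853% and 0.00840%, from 3, 2, 37 and 51 reads. Both were alike in all fish. Only 2 of the compared distant members were not alike, and both belonged to this guide, namely -1:1D, described above, and 5:1D with 2, 1, 39 and 17 reads.

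The level of the distant members differed between sites. Their sum per read without an indel averaged 0.0525% ± 0.00374 (SD, n = 4) at acaa2-sg1, 0.0141% ± 0.00876 (SD, n = 4) at acaa2-sg2, 0.0973% ± 0.0180 (SD, n = 2) at tlr4ba-sg1, 0.136% ± 0.160 (SD, n = 4) at tlr4ba-sg2, 0.0377% at tlr4bb-sg1 (n = 2) and 0.0116% ± 0.00313 (SD, n = 4) at tlr4bb-sg2. The large spread at tlr4ba-sg2 came with -1:1D in fish 1, where the sum was 0.373%. Sites differ in how many positions lie away from a common allele, so these sums describe each site and were not tested between them.

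Alleles of several events show whether the same losses also occurred on molecules that carried another indel. They were not members, but 214 of the 450 such alleles contained a 1-bp deletion, with 678 reads in all, or 0.0641% of the reads of the members. For each low-count member, its reads on indel alleles at 1% or more of the sample, more than 3 positions away, were set against its rate per read without an indel, where it had 20 reads or more alone. Reads of these indel alleles are called carrier reads. Of the 12 such cases the intervals overlapped in 8, and in 4 the rate on carrier reads was lower. The minimum was set on reads alone, which favours cases with a lower rate on carrier reads, so the direction of the 4 is a description. Cases left out by the minimum went both ways. At tlr4bb-sg2 fish 1, -5:1D was on 15 of 30247 carrier reads (0.0496%), against 0.0104% from 3 reads alone, with overlapping intervals. At tlr4ba-sg1 fish 4, 7:1D was on 0 of 346357, against 0.00701% from 7 reads alone. Overlap does not show like rates where carrier reads were few. Among the overlapping cases, 4:1D at acaa2-sg1 fish 3 had 0 of 7575 carrier reads (up to 0.0396% allowed), against 0.0216%. At tlr4ba-sg2 fish 3, -8:1D, 5:1D and 7:1D each had 0 of 41777 (up to 0.00718% allowed), against 0.00853%, 0.0090% and 0.00669%. At tlr4bb-sg2 fish 3, -5:1D had 1 of 7283 (0.0137%), against 0.0248%.

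At acaa2-sg1, 5:1D was on 27 of 83799 carrier reads of fish 3 (0.0322%), against 0.0306% per read without an indel. In fish 4 it was on 11 of 53027 carrier reads (0.0207%), against 0.0306%. Both pairs of intervals overlapped. At tlr4bb-sg2 fish 4, -5:1D was on 15 of 53578 carrier reads (0.0280%), against 0.0254%, and these intervals overlapped too. At tlr4ba-sg1 the rates were lower on carrier reads. These were all reads of -14:1D in fish 3, and 280632 of the 346357 in fish 4 were reads of -14:1D. Whether -14:1D was present before editing was not tested, so these reads are not called edited. At this site 8:1D was on 2 of 139764 carrier reads in fish 3 (0.00143%, interval 0.000392 to 0.00522), against 0.0328% (interval 0.0263 to 0.0408) per read without an indel. In fish 4 it was on 3 of 346357 carrier reads (0.000866%), against 0.0340%. For 4:1D in fish 3 the rates were 0.00429% on carrier reads and 0.0141% without an indel. The last of the 4 cases was 1:1D at acaa2-sg2 fish 3, with 0 of 258187 carrier reads, which allows up to 0.00116%, against 1.51%.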

How the data were processed

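The authors deposited raw counts of reads per allele, a table for each guide and a column for each fish, per the file headers. The submitters' processing notes name R 4.0.5 and genome build GRCz10, while aligner, caller and filters are not given in the sources used here, so errors of PCR, sequencing and alignment are part of the counts. Columns were tied to samples by guide and fish number. Reads labelled Other were left out of classified reads. Shares, Wilson intervals, exact two-sided permutation tests (the smaller tail doubled) and sign-flip tests were computed in Python 3.11.15 with pandas 2.3.3, NumPy 2.4.6 and SciPy 1.17.1. The interval comparison was tested on simulated data of 4 fish, at a rate above that of most low-count members. It was not tested for guides read in 2 fish or for alleles of fewer reads. No count model was applied, because alleles cannot be matched across guides. Nothing states separate cultures or clutches, so p-values measure the spread between these fish. Named alleles were those at 1% or more in a sample, the leader of each sample, those beside the threshold, and the 3 low-count alleles per guide with the highest mean rate per read without an indel. Members and lists were chosen with earlier results of these data known.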

Additional observations from a re-analysis of the deposited data

Results flagged for a closer look

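In 13 of 30 sets of 4 fish, 1 fish lay far from the others on a percent scale (gap to the nearest fish over the whole range above Dixon's 95% critical value). Chance flags about 1 in 20 sets taken without regard to their values. Many of these sets were alleles chosen by their own values, and some sets share reads, so that rate is no yardstick here. Shares that run over orders of magnitude are also flagged readily. The share of classified reads with a single 1-bp deletion stood apart at 36.2% in acaa2-sg1 fish 3, with the next fish at 4.10%, and at 45.2% in tlr4bb-sg2 fish 2, with the next at 4.72%. Of the common alleles, 1:1D stood apart at acaa2-sg1 (32.5%, next 0.285%) and at tlr4bb-sg2 (43.1%, next 0.334%), and -2:1D at tlr4bb-sg2 (4.67%, next 0.000998%).

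Low-count members were examined per read without an indel. At acaa2-sg2, 1:1D was apart at 1.51% in fish 3 (next 0.0902%) and -3:1D at 0.926% in fish 2 (next 0.135%). At tlr4ba-sg2, -1:1D was apart at 0.314% in fish 1 (next 0.0374%), 1:1D at 0.0231% (next 0.0131%) and -8:1D at 0.0139% (next 0.00853%), the last 2 from 5 and 3 reads of fish 1. At tlr4bb-sg2, 2:1D was apart at 1.09% in fish 2 (next 0.0207%), 3:1D at 0.0294% in fish 2 (next 0.00346%) and -5:1D was low at 0.0104% in fish 1 (next 0.0245%), from 3 reads.

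The first guide minus the second guide, in share of classified reads, was positive in both fish read at tlr4ba (36.7 points in fish 3 and 62.1 in fish 4) and negative in both at tlr4bb (-4.68 and -0.177). That difference between the paralogs was not tested.

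Outside the members, alleles of several events with a 1-bp deletion were most abundant in tlr4bb-sg2 fish 2, with 232 reads. Of these, 177 were 1 allele, -2:1D,2:2I, with 0 reads in the other fish.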

How the results depend on the processing

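Over the 10 comparisons, 4 of 111 results under other settings and 4 of 72 with 1 sample left out changed direction. Some of the 111 could not change. On indel reads, adding Other reads to the denominator or leaving out substitution-only reads repeats the main value. With 4 against 4 samples of guides, the replicate block has the same difference of means as the main comparison. Counting members only within 10 positions turned the tlr4ba difference to -0.0324 points (classified reads) and -1.41 points (indel reads). The same setting brought the knockouts to 26.4 points on indel reads (exact permutation p = 0.0286, unadjusted and the lowest possible). Reads of -14:1D stayed in the denominators under this setting. Counting Other reads as indel reads turned tlr4bb on indel reads to -30.5 points, and in fish 3 and 4 alone the knockouts were -2.19 points apart on indel reads. The second tlr4 guides, on classified reads, passed 0.05 in the main comparison, but not without alleles under 1% (-13.6 points, exact permutation p = 0.143), in fish 1 and 2 (-24.8 points) or 3 and 4 (-2.43 points), both designs of 2 against 2 whose smallest p is 0.333, or with 1 sample left out (-18.1 to -3.09 points). With the fish number as a replicate block their difference was -13.6 points (exact sign-flip permutation test, p = 0.125, the lowest possible with 4 pairs). No other call could change under this block, since no other main p was under 0.05 and the block cannot reach 0.05. On classified reads, deviations from the guide mean had the same sign in 3 of 4 fish for these guides and in 1 of 4 for the acaa2 guides. On indel reads the counts were 1 of 4 and 0 of 4, so the pairing of fish numbers was not shown by the data. With 1 sample left out, the acaa2 difference on indel reads ran from -23.8 to 8.98 points. The 7 common alleles were also 7 at thresholds of 0.5% and 2% and with Other reads in the denominator. Low-count members alike in all fish numbered 15 of 32 per read without an indel and 12 of 32 per classified read (3 near and 9 distant). Chosen after the data were seen, distances of 2 and 5 positions gave 0 of 12 and 2 of 17 near members alike, against 15 of 20 and 13 of 15 distant ones, and minimums of 10 and 50 reads gave 2 of 18 and 1 of 10 near, against 30 of 35 and 6 of 8 distant. The tlr4bb-sg1 and acaa2-sg1 fish 1 shares of indel reads rest on 91 to 161 reads, and members of a few reads carry little weight.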
